A study of Mus musculus with 9 samples.

Results

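The SLC25 proteins are the mitochondrial carrier family, and the genes described here are the protein-coding entries of the count table whose symbol is Slc25a followed by a number. The rule found 47 such genes among the 54532 genes of the table, 22046 of which were protein coding. The rule used symbols and biotype and no measured value, and below the family means the genes it found. Relatives with other symbols, such as Ucp2 and Mtch1, are not among them. At a mean of at least 1 CPM (a count scaled to the library total) over all libraries, 39 of the 47 were called expressed, 5 more had between 1 count and 70 counts in all, and 3 (Slc25a21, Slc25a31 and Slc25a43) had no count in any library.

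Mitochondrial carriers are small proteins, nearly all of the inner mitochondrial membrane, that exchange metabolites, nucleotides, cofactors and ions between the cytosol and the mitochondrial matrix. In a cell that makes fat, the citrate carrier sends citrate to the cytosol, where it is cleaved to the acetyl-CoA used for fatty acid synthesis, while the ADP/ATP and phosphate carriers serve the ATP synthase. Other members move aspartate, glutamate, carnitine esters, iron, glutathione and the precursors of cofactors, and several, among them the uncoupling homologues, have substrates that are less certain.

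Poly A RNA was sequenced from 3T3-L1 cells, a mouse preadipocyte line that turns into adipocytes under hormonal stimulation, in 3 groups with 3 libraries each. Undifferentiated cells were kept in growth medium with calf serum for 3 days after confluence. Differentiated cells were put after the same 3 days into a medium with 1 µM dexamethasone, 0.5 mM IBMX, 1 µM rosiglitazone and 10 µg/mL insulin, made from DMEM free of lysine and arginine to which fetal serum, arginine and lysine were given back. Lysfree cells had the same medium and hormones, arginine included, without the added lysine. Undifferentiated cells thus differed from both other groups in serum and base medium as well as in the hormones, and these cannot be told apart. RNA of the hormone groups was collected after 3 days in their medium, whereas the time of harvest of Undifferentiated cells was not given in the sources used here, so time in culture may differ as well. All groups are the same line, and the labels do not say whether the libraries of a group came from separate cultures. The p-values thus set differences against a spread estimated from these libraries, which need not be the spread between cultures.

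Total counts ranged from 15880144 to 21806693 per library, and no pair of libraries agreed within sampling noise. Lysfree 1 stood apart from the other Lysfree libraries, with a chi-square per degree of freedom of 43.3 and 44.4 against them over genes, compared with 2.76 to 12.3 for all other pairs of a group. The counts of changed members, and the members that lost their call without it, are given with and without it. Most other values are given with all libraries. The 8 adipocyte markers (such as Adipoq, Fabp4 and Plin1) summed to 310.5 to 393 FPKM (a level corrected for gene length and scaled for library size) in Undifferentiated, 7034 to 7334 in Differentiated and 243 to 324 in Lysfree libraries. The 6 fibroblast or preadipocyte markers summed to 3704 to 4112, 670.0 to 701 and 1556 to 1638 FPKM. Between Lysfree and Undifferentiated cells these sums hide markers that went different ways. Lpl was higher in Lysfree cells (mean 188 against 146 FPKM), whereas Adipoq was lower (4.18 against 57.8). Fn1 (719 against 380) and Thy1 (89.1 against 70.4) were higher, against the fall of their sum. At the thresholds used below, 3 of the 8 and 4 of the 6 were lower and 0 higher. Markers of macrophages, endothelium, skeletal muscle and epithelium summed to at most 14.6 FPKM in any library, with Adgre1, Itgam and Epcam at 0 counts throughout. The adipocyte sum was highest and the fibroblast or preadipocyte sum lowest in Differentiated libraries. A member picked as highest or lowest there shares a direction with 1 of these sums by that choice alone, so no link can be read from it. Other members followed neither sum, and the part of either list in the results was not tested. In these bulk samples fewer cells of a type and less RNA per cell cannot be told apart. The deposited FPKM, relative to counts over gene length and library total, stood at 0.988 to 0.994 in Undifferentiated libraries (median over genes). The same ratio was 1.03 to 1.04 in Differentiated and 0.932 to 0.953 in Lysfree libraries. Narrow gaps between groups in FPKM therefore need not hold in counts scaled to the library total.

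The summed level of the genes found by the rule was higher in Differentiated cells than in either other group. It was 713, 778 and 741 FPKM in the Undifferentiated libraries, 2115, 2089 and 2128 in the Differentiated libraries and 806, 822 and 833 in the Lysfree libraries. The Differentiated libraries lay above all others, and the Lysfree libraries lay just above the Undifferentiated libraries without overlap. As a share of all counts the family took 0.240% ± 0.0054, 0.535% ± 0.0040 and 0.285% ± 0.00047 (SD, n = 3 each). Most of the excess in Differentiated cells came from 3 genes chosen after their values were seen, Slc25a5, Slc25a1 and Slc25a10. Without them the sums were 564 ± 20.6, 788 ± 8.51 and 621 ± 2.90 FPKM (SD, n = 3 each).

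**Figure D1:**
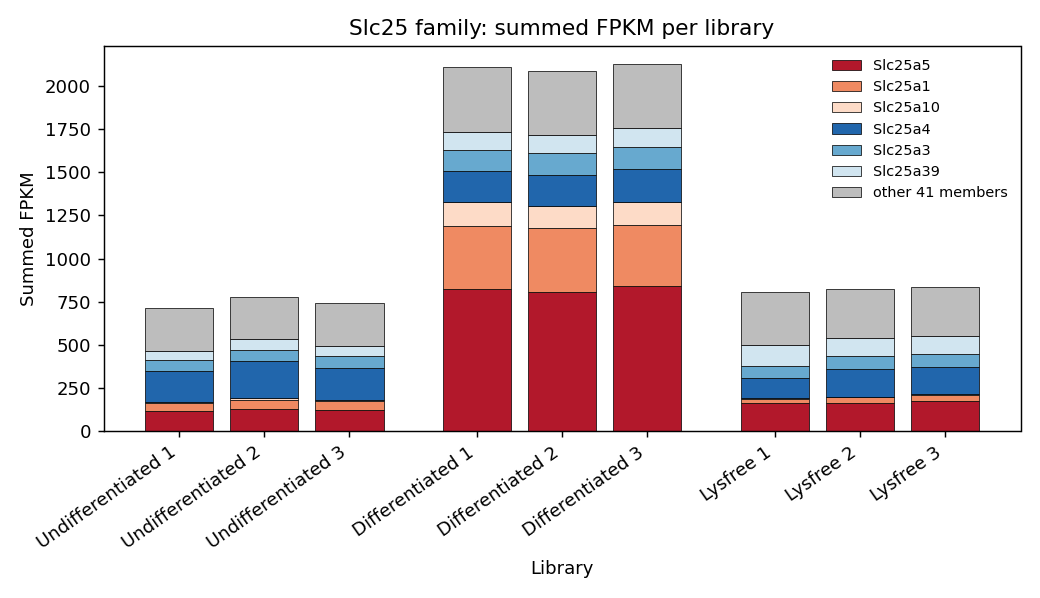
Summed FPKM of the 47 Slc25 members in each of the 9 libraries, as stacked bars from 0, with 6 members shown singly and the other 41 as 1 block. The 3 Differentiated bars reach 2089 to 2128 FPKM, against 713 to 833 FPKM in the other 6 libraries. Among the members shown singly, the blocks of Slc25a5, Slc25a1 and Slc25a10 widen most, and the pooled block widens as well.

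The order of the members also differed between groups. In Undifferentiated cells Slc25a4 led (192 ± 17 FPKM, SD, n = 3), ahead of Slc25a5 (121 ± 7.59), Slc25a3 (64.8 ± 1.27), Slc25a39 (58.9 ± 4.51) and Slc25a1 (48.6 ± 3.17). In Differentiated cells the order was Slc25a5 (822 ± 19.4), Slc25a1 (367 ± 12), Slc25a4 (181 ± 6.6), Slc25a10 (133 ± 6.31) and Slc25a3 (127 ± 3.4), the last pair with overlapping libraries. In Lysfree cells Slc25a5 (166 ± 6.2) and Slc25a4 (145 ± 24.7) were followed by Slc25a39 (112 ± 7.74), Slc25a3 (75.3 ± 0.666) and Slc25a1 (31.2 ± 5.92). The lead of Slc25a5 over Slc25a4 in Lysfree cells was small in Lysfree 2, at 164 against 160.2 FPKM.

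The sequences just before the transcription start are shown for the 4 members with the largest changes among those that were DEGs both between Differentiated and Undifferentiated cells and between Lysfree and Differentiated cells. Each is the 250 bases upstream of the RefSeq start on GRCm38.p6, the assembly also called mm10, printed 5′ to 3′ on the strand of the gene, and capitals mark CCAAT boxes (CCAAT, or ATTGG on the other strand) and GC boxes (GGGCGG or CCGCCC). The windows are chr16:17928220-17928469 (minus strand) for Slc25a1, chrX:36795347-36795596 (plus strand) for Slc25a5, chr11:120491587-120491836 (plus strand) for Slc25a10 and chr4:141623835-141624084 (minus strand) for Slc25a34.
Slc25a1: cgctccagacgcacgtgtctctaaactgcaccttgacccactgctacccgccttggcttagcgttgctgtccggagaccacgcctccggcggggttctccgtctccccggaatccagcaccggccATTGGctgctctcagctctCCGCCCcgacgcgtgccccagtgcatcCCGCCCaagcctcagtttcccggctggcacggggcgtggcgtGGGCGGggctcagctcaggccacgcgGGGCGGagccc
Slc25a5: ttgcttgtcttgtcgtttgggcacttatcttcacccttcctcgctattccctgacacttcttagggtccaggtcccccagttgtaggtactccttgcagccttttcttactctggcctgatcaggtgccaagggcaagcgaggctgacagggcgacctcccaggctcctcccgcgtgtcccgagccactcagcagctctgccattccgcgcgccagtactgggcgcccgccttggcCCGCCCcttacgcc
Slc25a10: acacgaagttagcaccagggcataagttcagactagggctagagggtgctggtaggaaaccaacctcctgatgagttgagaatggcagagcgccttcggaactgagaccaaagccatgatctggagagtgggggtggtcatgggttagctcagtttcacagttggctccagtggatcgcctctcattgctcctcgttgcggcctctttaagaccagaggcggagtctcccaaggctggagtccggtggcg
Slc25a34: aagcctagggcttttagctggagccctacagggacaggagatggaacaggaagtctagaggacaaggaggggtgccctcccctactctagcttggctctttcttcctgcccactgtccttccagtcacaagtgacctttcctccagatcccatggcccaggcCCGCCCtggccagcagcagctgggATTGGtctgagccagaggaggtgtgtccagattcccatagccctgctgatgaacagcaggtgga

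RefSeq windows of this kind were matched for 36 of the 47 members, 46 windows in all since some members have several starts. In them 7 motifs were searched on both strands. Those 4 genes carried only the commonest of them: Slc25a1 had 1 CCAAT box and 4 GC boxes, Slc25a34 had 1 of each, Slc25a5 had 1 GC box and Slc25a10 had neither in this window. CCAAT was present in 21 of the 46 member windows (18 members) and in 33.8% of all 32851 windows, and GGGCGG in 32 of the 46 (25 members) and in 32.7% of all. The letters TCACNCCAC (sterol response element) were found in 1 member (Slc25a18) and TGACGTCA (cyclic AMP response element) in 2 (Slc25a25 and Slc25a36), where 1.05% and 1.55% of all windows held them. No member window held TCAAGGTCA (ERR element), a repeat of AGGTCA with 1 base between the copies (PPAR element) or TGATGNAA (CARE), which 0.387%, 0.0335% and 3.45% of all windows did. A match describes the letters in this window and no more.

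Each pair of groups was compared with edgeR's quasi-likelihood test, and a DEG is a gene with a Benjamini-Hochberg adjusted p under 0.05 over all genes and a change of at least 2-fold. In Differentiated vs Undifferentiated, 13 of the 44 members tested were DEGs, 9 higher and 4 lower, where 21.8% of all genes tested were, 10.4% higher and 11.4% lower. In this comparison the fit over all genes with a count set the prior degrees of freedom of the spread to infinity, so every gene was given the shared spread and its SE and adjusted p carry little of the gene's own variation between libraries. They are smaller than 3 libraries per group can bear out for single genes. With edgeR's expression filter the prior degrees of freedom were 7.94, and Slc25a3, for example, had an adjusted p of 6.67e-10 in place of 2.15e-79. The same holds to a lesser degree in Lysfree vs Differentiated and Lysfree vs Undifferentiated, with 15.9 and 28.0 against 4.01 and 4.45 with the filter. In Lysfree vs Differentiated, Slc25a1 had an adjusted p of 3.54e-07 with the filter in place of 2.19e-15. In Lysfree vs Differentiated, 14 of 42 were DEGs, 5 higher and 9 lower, where 18.7% of all genes were, 8.14% higher and 10.5% lower. In Lysfree vs Undifferentiated, 6 of 44 were, 4 higher and 2 lower, where 14.3% of all genes were, 5.52% higher and 8.76% lower. Read against genes of like level, at a mean of 1 CPM or more, the shares of members were 33.3%, 35.9% and 15.4% and those of all genes 30.9%, 27% and 20.4%. The members' share thus lay near that of all expressed genes in the first comparison, above it in the second and below it in the last. These gaps rest on few members and were not tested. In the first comparison 23.1% of the expressed members were DEGs on the higher side and 10.3% on the lower side, beside 14.4% and 16.5% of all expressed genes. In the second these were 12.8% and 23.1%, beside 12.6% and 14.4%, and in the last 10.3% and 5.13%, beside 8.31% and 12.1%.

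At a mean of 1 CPM or more the median log2 fold changes were 0.52, -0.29 and 0.15 for the members and -0.010, 0.052 and 0.042 for all genes, in the order of the comparisons above. Over all members tested, whatever their level, the median was 0.36 in Differentiated vs Undifferentiated, -0.25 in Lysfree vs Differentiated and 0.097 in Lysfree vs Undifferentiated, beside 0.019, -0.058 and -0.015 for all genes tested. Without Lysfree 1, 13 members were DEGs in Lysfree vs Differentiated, 3 higher and 10 lower, beside 1903 higher and 2582 lower of 23678 genes, and 5 in Lysfree vs Undifferentiated, 3 higher and 2 lower, beside 1197 and 2084 of 23556 genes. Without Undifferentiated 3, the higher DEGs of the last comparison were 2, beside 1210 of 23544 genes. By the adjusted p alone, 34 of 44 members passed in Differentiated vs Undifferentiated (23 higher, 11 lower), where 46.1% of all genes did (23% higher, 23.2% lower). The counts were 25 of 42 in Lysfree vs Differentiated (8 higher, 17 lower), where 38.5% did (19.7% and 18.8%), and 28 of 44 in Lysfree vs Undifferentiated (18 higher, 10 lower), where 35.1% did (18% and 17.1%). Among genes at 1 CPM or more these shares were 87.2%, 64.1% and 71.8% of members and 77.4%, 64.5% and 59.8% of all genes. The comparisons share libraries, so their values are set side by side and not counted against each other. The FPKM of the groups did not overlap for 38 of 44, 29 of 42 and 30 of 44 members in these comparisons, where 50.9%, 46.6% and 43.5% of all genes did not. These all-gene shares include genes under 1 CPM. The share among genes at 1 CPM or more is not given here, so these values do not set the family apart from genes of like level.

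**Figure D2:**
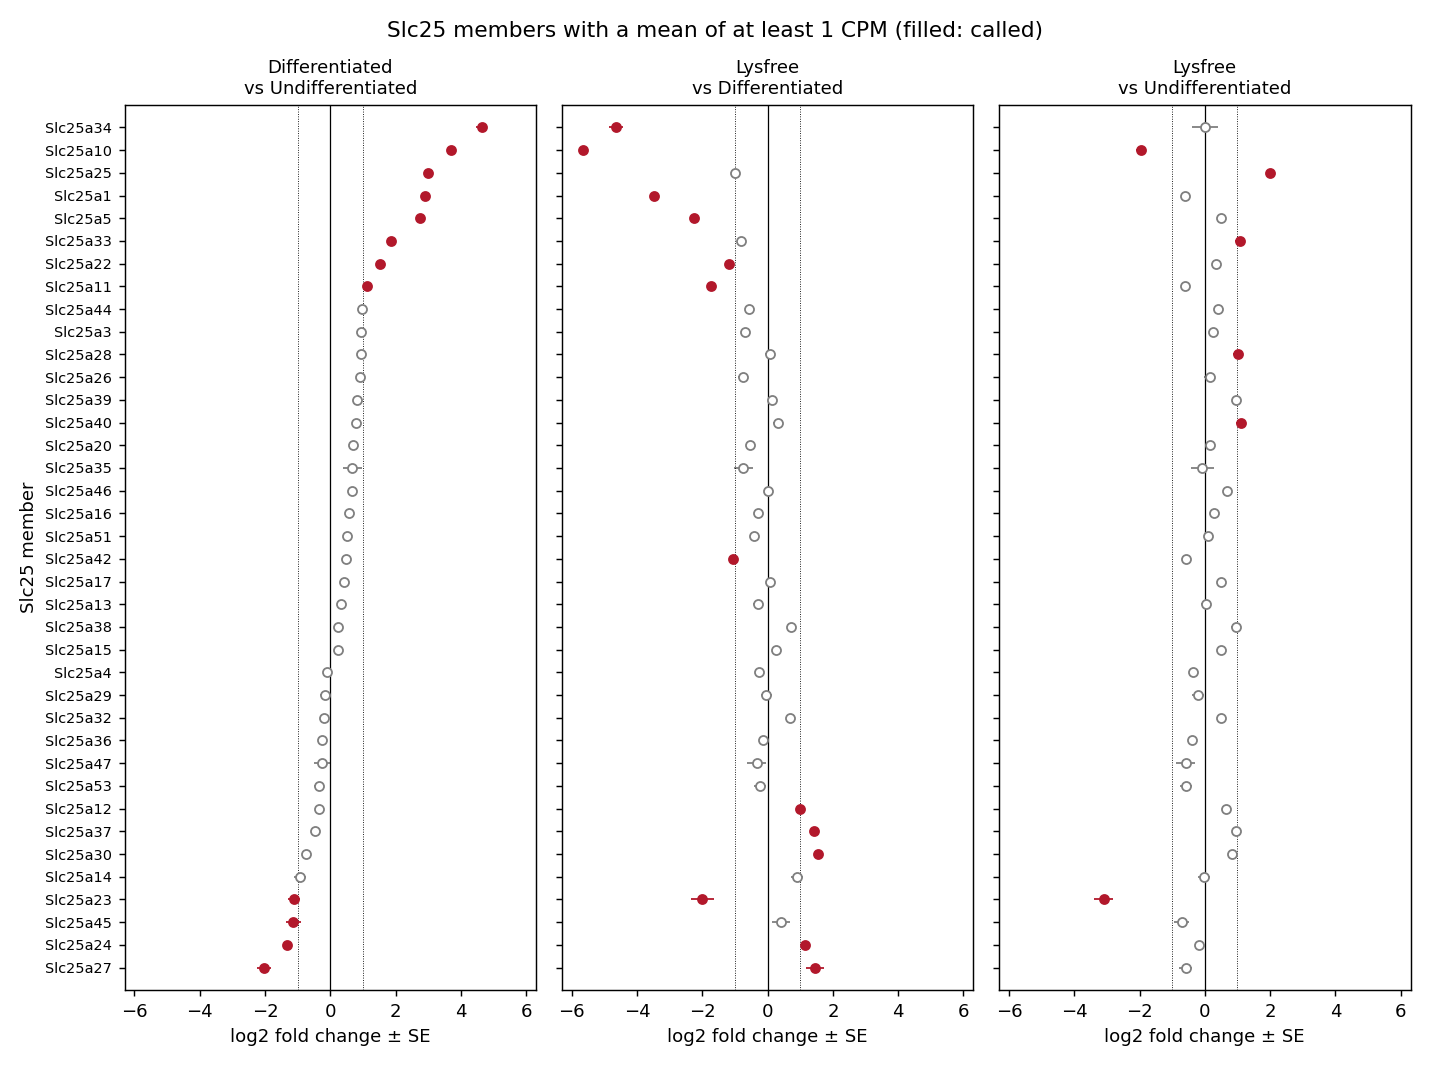
Log2 fold changes (horizontal axis, points) with their SE (bars) of 38 of the 39 Slc25 members with a mean of at least 1 CPM, in the order of the first panel, for the 3 comparisons. Filled points are DEGs and dotted lines mark a 2-fold change, and Slc25a34, Slc25a10, Slc25a1 and Slc25a5 lie far to the right in the first panel and far to the left in the second.

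The 3 carriers of citrate, dicarboxylates and oxoacids with counts were DEGs in both comparisons with Differentiated cells, higher in Differentiated than in Undifferentiated cells and lower in Lysfree than in Differentiated cells. Slc25a1, the citrate carrier (chr16:17925223-17928219, mm10), stood at 45.6, 51.9 and 48.2 FPKM in the Undifferentiated libraries, 371, 377 and 353 in the Differentiated libraries and 24.6, 32.8 and 36.1 in the Lysfree libraries. The 3 groups did not overlap, with Differentiated far above and Lysfree lowest. It rose 7.41-fold in Differentiated cells (log2 fold change 2.89 ± 0.055, SE) and fell 11.2-fold in Lysfree against Differentiated cells (log2 fold change -3.49 ± 0.12, adjusted p = 2.19e-15). Against Undifferentiated cells Lysfree cells had a lower level that missed the 2-fold threshold (log2 fold change -0.59 ± 0.12, adjusted p = 1.07e-04).

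Slc25a10, the dicarboxylate carrier, which exchanges malate and succinate for phosphate (chr11:120491840-120499187), had the widest range of the DEGs of the family. Its level was 8.82, 11 and 10.4 FPKM in the Undifferentiated libraries, 139, 127 and 135 in the Differentiated libraries and 2.6, 2.2 and 2.73 in the Lysfree libraries. Every library of a group lay apart from those of the others, with Lysfree below Undifferentiated. It was 13-fold higher in Differentiated than in Undifferentiated cells (log2 3.70 ± 0.061), 50.8-fold lower in Lysfree than in Differentiated cells (log2 fold change -5.67 ± 0.11, adjusted p = 6.08e-19) and 3.88-fold lower in Lysfree than in Undifferentiated cells (log2 fold change -1.96 ± 0.14, adjusted p = 4.39e-13). An antisense gene, Gm11788, overlaps it with 85 counts against 25636 for Slc25a10 over all libraries.

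Slc25a11, the oxoglutarate and malate carrier of the malate-aspartate shuttle, stood at 33.5, 37.4 and 34.4 FPKM in the Undifferentiated libraries, 78.5, 76.6 and 76.6 in the Differentiated libraries and 23.6, 21.1 and 21.9 in the Lysfree libraries. It was higher in all Differentiated libraries (2.16-fold, log2 1.11 ± 0.059) and lowest in the Lysfree libraries (3.33-fold below Differentiated, log2 fold change -1.74 ± 0.092, adjusted p = 2.05e-12). Rnf167 lies over it on the opposite strand with 3794 counts against 15279, and without a stated strand setting reads of the overlap cannot be assigned to either. Slc25a21, the carrier of oxoadipate, an intermediate of lysine breakdown, had 0 counts in all 9 libraries, and a floor of 3 counts allows up to 0.138 to 0.189 CPM per library.

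Among the ADP/ATP carriers only Slc25a5 was a DEG. Slc25a5, the isoform known as ANT2 (chrX:36795651-36798807), stood at 113, 129 and 122 FPKM in the Undifferentiated libraries, 820.2, 803 and 842 in the Differentiated libraries and 161, 164 and 173 in the Lysfree libraries. The Differentiated libraries lay far above, and the Lysfree libraries above the Undifferentiated libraries. The rise in Differentiated cells was 6.65-fold (log2 2.73 ± 0.051), the fall in Lysfree against Differentiated cells 4.74-fold (log2 fold change -2.25 ± 0.080, adjusted p = 3.08e-15), and Lysfree against Undifferentiated cells gave 1.41-fold (log2 fold change 0.50 ± 0.097, adjusted p = 7.90e-05), under the threshold.

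Slc25a4, the isoform ANT1 known from heart and muscle, stood at 179, 212 and 187 FPKM in the Undifferentiated libraries, 178, 178 and 189 in the Differentiated libraries and 116, 160.2 and 157 in the Lysfree libraries. Differentiated and Undifferentiated libraries overlapped (log2 fold change -0.11 ± 0.050, adjusted p = 0.0532), and the Lysfree libraries were lower in FPKM, Lysfree 1 most (log2 fold change -0.36 ± 0.11, adjusted p = 0.00836 against Undifferentiated). The difference from Differentiated cells did not pass by adjusted p (log2 fold change -0.26 ± 0.11, adjusted p = 0.0572), and that from Undifferentiated cells had an adjusted p of 0.067 without Undifferentiated 3. Slc25a4 and Slc25a5 are close in sequence, and how the authors' counting treated reads that map to both, or to pseudogenes of Slc25a5, was not given in the sources used here. The testis isoform Slc25a31 had 0 counts.

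Slc25a3, the phosphate carrier, was among the most abundant members at 63.8, 64.4 and 66.2 FPKM in the Undifferentiated libraries, 125, 126 and 131 in the Differentiated libraries and 74.7, 76 and 75.2 in the Lysfree libraries. Its groups did not overlap, and the differences stayed under 2-fold, with 1.93-fold in Differentiated vs Undifferentiated (log2 fold change 0.95 ± 0.050, adjusted p = 2.15e-79) and 1.62-fold in Lysfree vs Differentiated (log2 fold change -0.69 ± 0.078, adjusted p = 2.07e-07).

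**Figure D3:**
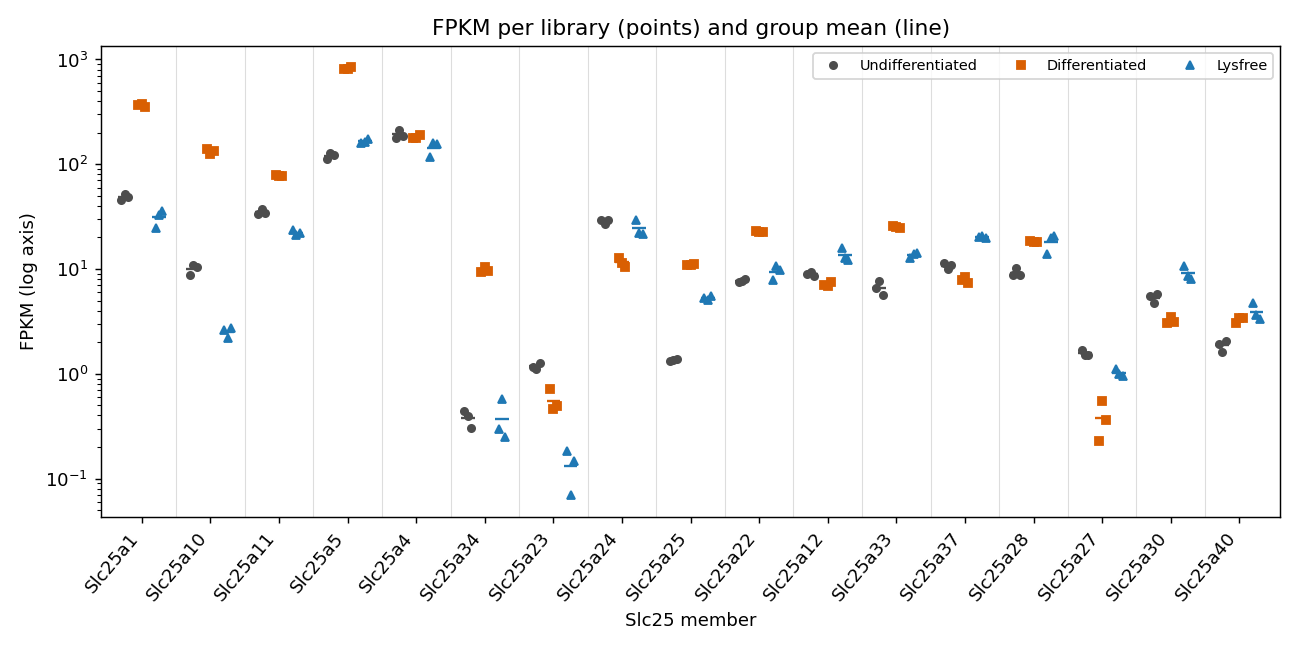
FPKM on a log axis of 17 Slc25 members in the 9 libraries (points, 3 per group) with the group means (short lines). Slc25a1, Slc25a10, Slc25a11, Slc25a5, Slc25a34, Slc25a22, Slc25a33 and Slc25a25 are highest in Differentiated libraries, whereas Slc25a24, Slc25a27, Slc25a30, Slc25a37 and Slc25a12 are lowest there.

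The carriers of ATP-Mg and phosphate went different ways. Slc25a25 was at 1.34, 1.35 and 1.39 FPKM in the Undifferentiated libraries, 11, 10.9 and 11.1 in the Differentiated libraries and 5.25, 5.09 and 5.5 in the Lysfree libraries. It rose 7.95-fold in Differentiated against Undifferentiated cells (log2 2.99 ± 0.084) and 4.02-fold in Lysfree against Undifferentiated cells (log2 fold change 2.01 ± 0.13, adjusted p = 2.13e-14), so that its Lysfree level lay between those of the other groups. Lysfree against Differentiated cells fell just short of the threshold (log2 fold change -0.99 ± 0.096, adjusted p = 2.37e-08). Naif1 overlaps it on the opposite strand with 1965 counts against 7297.

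Slc25a24 was at 29.5, 26.9 and 29.3 FPKM in the Undifferentiated libraries, 12.8, 11.5 and 10.5 in the Differentiated libraries and 29.4, 22.2 and 21.8 in the Lysfree libraries. It fell 2.51-fold in Differentiated cells (log2 -1.33 ± 0.068), and it was 2.2-fold higher in Lysfree than in Differentiated cells (log2 fold change 1.14 ± 0.12, adjusted p = 8.99e-08), where Lysfree 1 was the highest Lysfree library. Without Lysfree 1 the log2 fold change of Slc25a24 was 0.97, under 2-fold. Undifferentiated and Lysfree libraries overlapped (log2 fold change -0.18 ± 0.11, adjusted p = 0.235).

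Slc25a23 was scarce, at 1.15, 1.12 and 1.26 FPKM (Undifferentiated), 0.72, 0.456 and 0.491 FPKM (Differentiated) and 0.183, 0.0693 and 0.146 FPKM (Lysfree), from 107 to 130 counts per Undifferentiated library, 42 to 59 per Differentiated library and 7 to 17 per Lysfree library. The 3 groups did not overlap, with Differentiated 2.17-fold below Undifferentiated (log2 -1.12 ± 0.19) and Lysfree 8.57-fold below Undifferentiated (log2 fold change -3.10 ± 0.29, adjusted p = 8.36e-11) and 3.99-fold below Differentiated (log2 fold change -2.0 ± 0.34, adjusted p = 6.40e-05). Slc25a23 was the only member with a mean of at least 1 CPM called lower in all 3 comparisons. Limma on log2(FPKM + 1) called it in none of them, and without Differentiated 2 the log2 fold change of Slc25a23 in Differentiated vs Undifferentiated was -0.98. Slc25a41 and Slc25a54 had 1 count and 12 counts in all.

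Of the aspartate and glutamate carriers, Slc25a22, a carrier of glutamate with protons, was at 7.58, 7.63 and 7.98 FPKM in the Undifferentiated libraries, 22.8, 22.5 and 22.4 in the Differentiated libraries and 7.78, 10.7 and 9.81 in the Lysfree libraries. The Differentiated libraries were higher than all others, 2.87-fold above Undifferentiated (log2 1.52 ± 0.064), and Lysfree fell 2.28-fold against them (log2 fold change -1.19 ± 0.11, adjusted p = 1.32e-08). Slc25a12, known as aralar, which brings glutamate in for aspartate in the malate-aspartate shuttle, was lowest in Differentiated and highest in Lysfree libraries, at 8.99, 9.29 and 8.51 FPKM (Undifferentiated), 7.02, 6.82 and 7.55 FPKM (Differentiated) and 16, 12.6 and 12.3 FPKM (Lysfree). Its rise in Lysfree against Differentiated cells was at the threshold (log2 fold change 1.0 ± 0.11, adjusted p = 1.23e-07), and without Lysfree 1, its highest library, the log2 fold change of Slc25a12 was 0.85. It stayed a DEG in 4 of 14 alternative fits. Its homologue Slc25a13, citrin, differed less, with means of 3.93 ± 0.428, 5.0 ± 0.418 and 3.88 ± 0.348 FPKM (SD, n = 3 each) and log2 fold change 0.32 ± 0.10, adjusted p = 0.00546 in Differentiated vs Undifferentiated. Slc25a18 had 70 counts in all, under a neighbour on the other strand (Atp6v1e1) with 22175.

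The pyrimidine nucleotide carriers Slc25a33 and Slc25a36, which supply the matrix with nucleotides for mitochondrial DNA and RNA, differed from each other. Slc25a33 was at 6.64, 7.61 and 5.69 FPKM in the Undifferentiated libraries, 25.7, 25 and 24.4 in the Differentiated libraries and 12.8, 13.8 and 14.3 in the Lysfree libraries. All groups were apart, with Differentiated 3.66-fold above Undifferentiated (log2 1.87 ± 0.091) and Lysfree 2.11-fold above Undifferentiated (log2 fold change 1.08 ± 0.14, adjusted p = 1.39e-07). Lysfree vs Differentiated gave log2 fold change -0.81 ± 0.11, adjusted p = 2.68e-06, under 2-fold, and without Undifferentiated 3 the log2 fold change of Slc25a33 in Lysfree vs Undifferentiated was 0.98. Slc25a36 was at 14, 12.5 and 14.6 FPKM in the Undifferentiated libraries, 12, 11.6 and 11.6 in the Differentiated libraries and 12.3, 8.93 and 9.14 in the Lysfree libraries, and none of its differences reached 2-fold (log2 fold change -0.39 ± 0.11, adjusted p = 0.00571 in Lysfree vs Undifferentiated).

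Among the carriers of coenzymes, Slc25a42, a coenzyme A carrier, was at 7.43, 6.9 and 7.64 FPKM (Undifferentiated), 10.4, 10.4 and 10.3 FPKM (Differentiated) and 4.39, 5.19 and 4.79 FPKM (Lysfree). Its lower level in Lysfree cells passed the threshold against Differentiated cells (log2 fold change -1.05 ± 0.11, adjusted p = 5.45e-08) and not against Undifferentiated cells (log2 fold change -0.56 ± 0.12, adjusted p = 2.36e-04). With scaling by library sizes alone the log2 fold change of Slc25a42 in Lysfree vs Differentiated cells was -0.97, short of 2-fold.

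Slc25a17, a carrier of the peroxisomal membrane and higher than Slc25a42, Slc25a32 and Slc25a16 in every group, was at 22, 21.8 and 20.3 FPKM (Undifferentiated), 29, 27.6 and 29.9 FPKM (Differentiated) and 33.2, 26.9 and 27.9 FPKM (Lysfree). It was higher in Differentiated and in Lysfree than in Undifferentiated cells by less than 2-fold (log2 fold change 0.40 ± 0.065, adjusted p = 2.79e-09 and log2 fold change 0.50 ± 0.11, adjusted p = 2.56e-04). Slc25a32, the folate carrier, was higher in Lysfree than in Differentiated cells (11.7 ± 2.08 against 7.64 ± 0.516 FPKM, SD, n = 3, log2 fold change 0.67 ± 0.12, adjusted p = 6.66e-05), and Slc25a16 was at 5.08 ± 0.529, 7.67 ± 0.537 and 6.01 ± 0.789 FPKM in the 3 groups. Neither passed 2-fold in any comparison.

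Both iron carriers, the mitoferrins, were higher in Lysfree than in Undifferentiated cells, 1 of them past the threshold. Slc25a37, mitoferrin 1, was at 11.4, 9.94 and 11 FPKM in the Undifferentiated libraries, 7.79, 8.48 and 7.3 in the Differentiated libraries and 20.1, 20.6 and 19.6 in the Lysfree libraries. The Differentiated libraries were lowest, and the Lysfree libraries were 2.67-fold above them (log2 fold change 1.42 ± 0.097, adjusted p = 1.15e-10). Against Undifferentiated cells the Lysfree level was 1.93-fold higher (log2 fold change 0.95 ± 0.10, adjusted p = 2.79e-09), just under the threshold.

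Slc25a28, mitoferrin 2, was at 8.71, 10.3 and 8.79 FPKM in the Undifferentiated libraries, 18.5, 18.1 and 18.2 in the Differentiated libraries and 13.9, 19.98 and 20.7 in the Lysfree libraries, higher in both media with hormones than in Undifferentiated cells. The Lysfree difference passed the threshold narrowly (log2 fold change 1.02 ± 0.15, adjusted p = 9.67e-07). When single libraries were left out, the log2 fold change of Slc25a28 ran from 0.92 without Lysfree 3 to 1.15 without Lysfree 1, its lowest Lysfree library, and it was under 1 without Undifferentiated 1, Undifferentiated 3, Lysfree 2 or Lysfree 3. Differentiated vs Undifferentiated cells stayed under the threshold (log2 fold change 0.95 ± 0.098, adjusted p = 2.12e-21), and Lysfree and Differentiated libraries overlapped (log2 fold change 0.063 ± 0.14, adjusted p = 0.742). Slc25a38, the glycine carrier needed for the first step of haem synthesis, was at 3.9, 4.2 and 4.34 FPKM (Undifferentiated), 4.47, 4.89 and 5.43 FPKM (Differentiated) and 7.46, 7.62 and 8.07 FPKM (Lysfree), highest in Lysfree libraries and under 2-fold (log2 fold change 0.94 ± 0.14, adjusted p = 1.45e-06 against Undifferentiated, log2 fold change 0.71 ± 0.13, adjusted p = 1.31e-04 against Differentiated).

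The glutathione carriers Slc25a39 and Slc25a40 were both higher in the hormone media than in Undifferentiated cells. Slc25a39 was at 54.8, 63.7 and 58.3 FPKM in the Undifferentiated libraries, 104, 106 and 107 in the Differentiated libraries and 121, 106 and 109 in the Lysfree libraries. Differentiated and Lysfree libraries overlapped (log2 fold change 0.15 ± 0.084, adjusted p = 0.194), and the differences from Undifferentiated cells were 1.76-fold and 1.96-fold, under the threshold (log2 fold change 0.97 ± 0.099, adjusted p = 8.31e-10 in Lysfree vs Undifferentiated). Slc25a40, much less abundant, was at 1.94, 1.63 and 2.05 FPKM (Undifferentiated), 3.04, 3.39 and 3.41 FPKM (Differentiated) and 4.78, 3.61 and 3.31 FPKM (Lysfree). It rose 2.15-fold in Lysfree against Undifferentiated cells (log2 fold change 1.11 ± 0.14, adjusted p = 1.08e-07), and without Lysfree 1, its highest library, the log2 fold change of Slc25a40 was 0.92.

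Carriers of fatty acyl groups, branched-chain amino acids, S-adenosylmethionine and NAD were higher in Differentiated cells than in either other group, each by less than 2-fold. Slc25a20, the carnitine and acylcarnitine carrier of fatty acid oxidation, was at 4.61, 5.14 and 4.87 FPKM (Undifferentiated), 8.05, 7.88 and 8.1 FPKM (Differentiated) and 5.64, 5.03 and 5.07 FPKM (Lysfree) (log2 fold change 0.69 ± 0.085, adjusted p = 2.65e-15, and log2 fold change -0.55 ± 0.11, adjusted p = 3.44e-04 in Lysfree vs Differentiated). Slc25a44, the branched-chain amino acid carrier, was at 11, 11.9 and 12.1 FPKM (Undifferentiated), 23, 22.6 and 24.3 FPKM (Differentiated) and 13.4, 15.3 and 16.5 FPKM (Lysfree), close to the threshold in Differentiated cells (log2 fold change 0.97 ± 0.069, adjusted p = 7.62e-44) and lower again in Lysfree cells (log2 fold change -0.56 ± 0.10, adjusted p = 1.22e-04).

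Slc25a26, the S-adenosylmethionine carrier, was at 1.97, 1.75 and 1.83 FPKM (Undifferentiated), 3.36, 3.59 and 3.61 FPKM (Differentiated) and 1.86, 2.13 and 1.99 FPKM (Lysfree) (log2 fold change 0.90 ± 0.12, adjusted p = 1.60e-13, and log2 fold change -0.75 ± 0.14, adjusted p = 1.25e-04 in Lysfree vs Differentiated), under a neighbour on the other strand, Lrig1, with 47190 counts against 1917. Slc25a51, the NAD carrier, was at 21.1, 19.2 and 22.4 FPKM (Undifferentiated), 31.3, 30.7 and 29.5 FPKM (Differentiated) and 25, 21.1 and 19.2 FPKM (Lysfree) (log2 fold change 0.52 ± 0.057, adjusted p = 3.03e-19, and log2 fold change -0.42 ± 0.098, adjusted p = 0.00127 in Lysfree vs Differentiated). These 4 were put together by their shared direction. In each of them the Differentiated libraries lay above all libraries of the other groups. Lysfree and Undifferentiated libraries overlapped for all but Slc25a44 (log2 fold change 0.41 ± 0.11, adjusted p = 0.00407). Groups did not overlap, in either direction, for 50.9% of all genes in Differentiated vs Undifferentiated and 46.6% in Lysfree vs Differentiated, so the lack of overlap does not set these 4 apart.

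The carriers of ornithine and basic amino acids, among which Slc25a29 accepts lysine and arginine, differed little. Slc25a29 was at 3.62, 3.53 and 3.67 FPKM (Undifferentiated), 3.22, 3.67 and 2.85 FPKM (Differentiated) and 2.6, 3.16 and 3.28 FPKM (Lysfree), with log2 fold change -0.044 ± 0.17, adjusted p = 0.858 in Lysfree vs Differentiated and log2 fold change -0.21 ± 0.17, adjusted p = 0.393 in Lysfree vs Undifferentiated. Its sign in Lysfree vs Differentiated turned under some alternatives, such as scaling by library sizes alone, where the log2 fold change of Slc25a29 was 0.031. Slc25a15, the ornithine carrier of the urea cycle, was at 3.09, 3.2 and 3.39 FPKM (Undifferentiated), 4.18, 3.89 and 3.42 FPKM (Differentiated) and 4.34, 4.41 and 4.42 FPKM (Lysfree), highest in Lysfree libraries (log2 fold change 0.49 ± 0.13, adjusted p = 0.00278 against Undifferentiated, log2 fold change 0.26 ± 0.12, adjusted p = 0.105 against Differentiated). Slc25a2 had between 0 and 8 counts per library.

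The 3 uncoupling homologues, relatives of UCP1 that are best known from brain and kidney, were all lower in Differentiated than in Undifferentiated cells and higher in Lysfree than in Differentiated cells. Slc25a30 was at 5.47, 4.71 and 5.72 FPKM in the Undifferentiated libraries, 3.08, 3.48 and 3.13 in the Differentiated libraries and 10.7, 8.66 and 7.98 in the Lysfree libraries. It was 2.94-fold higher in Lysfree than in Differentiated cells (log2 fold change 1.56 ± 0.13, adjusted p = 2.60e-09), with 1.67-fold lower in Differentiated vs Undifferentiated under the threshold (log2 fold change -0.74 ± 0.10, adjusted p = 7.80e-13). Slc25a27 was at 1.68, 1.51 and 1.51 FPKM (Undifferentiated), 0.23, 0.546 and 0.362 FPKM (Differentiated) and 1.11, 0.986 and 0.943 FPKM (Lysfree), from 14 to 40 counts per Differentiated library, and fell 4.12-fold in Differentiated cells (log2 -2.04 ± 0.22) and was 2.75-fold higher in Lysfree cells (log2 fold change 1.46 ± 0.28, adjusted p = 1.89e-04). Limma on log2(FPKM + 1) called Slc25a27 in neither comparison, at -0.90 and 0.55. Slc25a14 was at 2.78, 2.89 and 2.75 FPKM (Undifferentiated), 1.39, 1.41 and 1.68 FPKM (Differentiated) and 2.86, 2.46 and 2.7 FPKM (Lysfree) and missed the threshold in both (log2 fold change -0.94 ± 0.18, adjusted p = 7.99e-07, and log2 fold change 0.91 ± 0.19, adjusted p = 5.65e-04).

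Slc25a46, a member of the outer membrane with a part in mitochondrial shape, was at 9.03, 9.2 and 8.97 FPKM (Undifferentiated), 14.6, 14.4 and 14.6 FPKM (Differentiated) and 16.8, 12.9 and 12.2 FPKM (Lysfree). It was higher in both hormone media than in Undifferentiated cells by less than 2-fold (log2 fold change 0.65 ± 0.072, adjusted p = 1.17e-18 and log2 fold change 0.67 ± 0.12, adjusted p = 2.04e-05). Lysfree and Differentiated libraries overlapped (log2 fold change 0.0086 ± 0.11, adjusted p = 0.972). Without Lysfree 1, the highest library, the log2 fold change of Slc25a46 in that comparison was -0.16 with an adjusted p of 0.0281.

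Of the members without an assigned substrate here, Slc25a34 (chr4:141618824-141623821) had the largest rise of the DEGs in Differentiated vs Undifferentiated. Its level was 0.439, 0.393 and 0.304 FPKM in the Undifferentiated libraries, 9.32, 10.5 and 9.58 in the Differentiated libraries and 0.298, 0.57 and 0.251 in the Lysfree libraries, from 385 to 522 counts per Differentiated library against 13 to 29 in the others. It rose 24.9-fold in Differentiated cells (log2 4.63 ± 0.16) and fell 24.9-fold in Lysfree against Differentiated cells (log2 fold change -4.64 ± 0.22, adjusted p = 2.42e-13). Undifferentiated and Lysfree libraries overlapped, and their difference was near 0 with a wide error (log2 fold change 0.016 ± 0.39, adjusted p = 0.978), which at 13 to 29 counts per library leaves room for a difference.

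Slc25a45 fell 2.19-fold in Differentiated cells (log2 -1.13 ± 0.23), at 1.75, 1.48 and 1.65 FPKM (Undifferentiated), 0.756, 0.993 and 0.491 FPKM (Differentiated) and 0.816, 1.07 and 0.992 FPKM (Lysfree) from 21 to 49 counts per Differentiated library. Without Differentiated 3 the log2 fold change of Slc25a45 was -0.91. Lysfree against Undifferentiated cells gave log2 fold change -0.71 ± 0.23, adjusted p = 0.0153, under the threshold. Slc25a35, Slc25a47 and Slc25a53 had means between 0.334 and 1.12 FPKM in every group and no DEG call, with the largest difference for Slc25a35 in Lysfree vs Differentiated (log2 fold change -0.75 ± 0.29, adjusted p = 0.0458). Slc25a48 had 1 count in all, and Slc25a43 had none.

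For the 13 DEGs of Differentiated vs Undifferentiated the largest adjusted p was that of Slc25a45 (1.69e-06), and those of Slc25a1, Slc25a5 and Slc25a10 were below the smallest number R can represent. The fit over all genes treated the spread as shared by all genes in this comparison. With edgeR's expression filter, where each gene keeps more of its own spread, their adjusted p ranged from 3.45e-13 (Slc25a1) to 8.56e-04 (Slc25a45), and all 13 were DEGs there too.

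Ratios of FPKM between related members show how their balance differed within a library, whatever the library's scale. They were computed for 7 pairs, chosen with earlier results of these data known, and are given as descriptions. Slc25a5 over Slc25a4 was 0.633, 0.608 and 0.652 in Undifferentiated, 4.62, 4.52 and 4.46 in Differentiated and 1.39, 1.02 and 1.10 in Lysfree libraries, so that the more abundant ADP/ATP carrier was Slc25a4 in Undifferentiated cells and Slc25a5 in both others. Slc25a25 over Slc25a24 was 0.0475 ± 0.0023 in Undifferentiated, 0.953 ± 0.10 in Differentiated and 0.220 ± 0.038 in Lysfree cells (SD, n = 3 each). In both pairs the groups did not overlap, and Lysfree lay between the others.

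Slc25a33 over Slc25a36 had the same order, at 0.491 ± 0.11, 2.13 ± 0.031 and 1.38 ± 0.30. Slc25a37 over Slc25a28 was 1.18 ± 0.18 in Undifferentiated, 0.431 ± 0.034 in Differentiated and 1.14 ± 0.27 in Lysfree cells, with the first and the last overlapping. Slc25a12 over Slc25a13 was 2.30 ± 0.33, 1.43 ± 0.060 and 3.52 ± 0.35, highest in Lysfree libraries. Slc25a1 over Slc25a10 was 4.85 ± 0.29, 2.75 ± 0.19 and 12.5 ± 2.78, and Slc25a39 over Slc25a40 was 31.9 ± 6.28, 32.3 ± 1.72 and 29.1 ± 3.83, with overlapping groups.

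**Figure D4:**
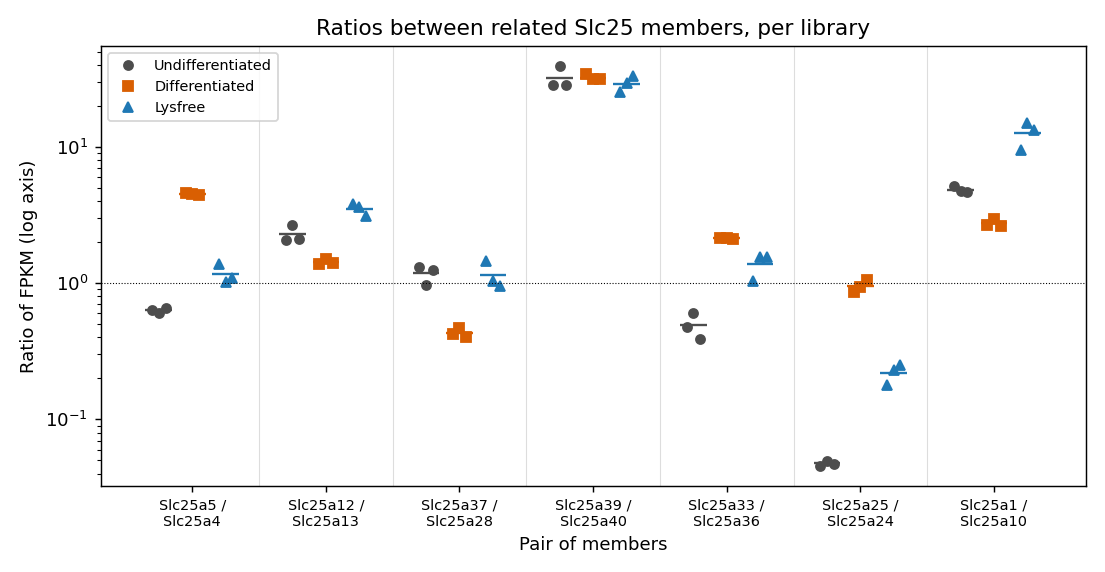
Ratio of the FPKM of 2 related Slc25 members in each library (points, log axis) for 7 pairs and 3 groups, with the group means as short lines and a dotted line at a ratio of 1. Slc25a5 over Slc25a4 is below 1 in Undifferentiated and above 1 in all other libraries, and Slc25a39 over Slc25a40 overlaps between the groups.

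Other genes of mitochondrial membrane transport were taken from a list of 26, of which 25 were tested. In Differentiated vs Undifferentiated 9 were DEGs on the higher side and 2 on the lower side, where 14.4% and 16.5% of all genes at 1 CPM or more were. In Lysfree vs Differentiated the counts were 2 and 7, where 12.6% and 14.4% were, and in Lysfree vs Undifferentiated 3 and 4, where 8.31% and 12.1% were. The median log2 fold changes of the list were 0.68, -0.56 and 0.28. All genes tested had 0.019, -0.058 and -0.015, and all genes at 1 CPM or more had -0.010, 0.052 and 0.042. Mpc1 and Mpc2, the subunits of the pyruvate carrier, rose in Differentiated cells (log2 2.17 ± 0.14 and log2 1.44 ± 0.061), and Mpc1 fell in Lysfree against Differentiated cells (log2 fold change -1.59 ± 0.17, adjusted p = 9.59e-08). Ucp2, an uncoupling protein found in many tissues, was at 16.4 ± 0.799, 63.6 ± 0.38 and 17.1 ± 1.38 FPKM (SD, n = 3 each) and was a DEG in both comparisons with Differentiated cells (log2 1.93 ± 0.055 and log2 -1.83 ± 0.088). Ucp1, the uncoupling protein of brown fat, had 0 counts in every library. Mtch1, a distant relative of the carriers in the outer membrane, fell in both hormone media against Undifferentiated cells (log2 -1.08 ± 0.054 and log2 -1.29 ± 0.11).

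Of 24 enzymes, chosen by hand, that work on the carried metabolites, 15 were DEGs on the higher side and 1 on the lower side in Differentiated vs Undifferentiated, where 14.4% and 16.5% of all genes at 1 CPM or more were. The counts were 3 and 10 in Lysfree vs Differentiated (12.6% and 14.4% of those genes), and 4 and 1 in Lysfree vs Undifferentiated (8.31% and 12.1%). Their median log2 fold changes were 1.35, -0.70 and 0.14, beside 0.019, -0.058 and -0.015 for all genes tested. For all genes at 1 CPM or more the medians were -0.010, 0.052 and 0.042. The enzymes were chosen with earlier results of these data known, so their counts are descriptions. Acly, which cleaves the citrate that Slc25a1 exports, was at 36.4 ± 0.596, 154 ± 1.96 and 32.2 ± 0.945 FPKM, and citrate synthase, Cs, at 33.5 ± 0.643, 157 ± 1.7 and 45.3 ± 3.72 FPKM (SD, n = 3 each). Both were DEGs in the comparisons with Differentiated cells (log2 -2.19 ± 0.082 and log2 -1.73 ± 0.083 in Lysfree vs Differentiated). Cpt1a, which makes the acylcarnitines that Slc25a20 takes in, went the other way, lower in Differentiated cells (log2 -1.58 ± 0.066) and higher in Lysfree than in Differentiated cells (log2 fold change 1.28 ± 0.099, adjusted p = 8.25e-10). Cpt2 and Crat of the same list moved in the direction of Slc25a20 and were DEGs in both comparisons (log2 1.6 and 1.9, then -1.5 and -2.5). Cpt1b was a DEG in neither.

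Bcat2 and Bckdhb, of branched-chain amino acid breakdown, rose in Differentiated cells (log2 2.64 ± 0.059 and log2 2.92 ± 0.065) and fell in Lysfree against Differentiated cells (log2 -2.83 ± 0.099 and log2 -2.25 ± 0.11), while the change of their carrier Slc25a44 stayed under 2-fold. Alas1, the enzyme that uses the glycine brought in by Slc25a38, was at 7.67 ± 0.159, 28.5 ± 0.606 and 5.99 ± 0.252 FPKM, a DEG in both comparisons with Differentiated cells (log2 1.86 ± 0.062 and log2 -2.19 ± 0.093). Shmt2 and Mthfd2, of mitochondrial folate metabolism, rose in both hormone media against Undifferentiated cells (log2 1.40 ± 0.10 and log2 1.41 ± 0.098 in Lysfree), where the folate carrier Slc25a32 stayed under 2-fold (log2 0.49 ± 0.12).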

How the data were processed

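Poly A RNA of 9 libraries of 3T3-L1 cells was sequenced as paired-end reads, and samples were grouped by their labels. The authors cleaned the reads and mapped them to mm10 with HISAT2 2.0.5, and per the submitters' processing notes featureCounts 1.5.0-p3 was used. The authors deposited raw counts per gene, without normalization, and FPKM for the same genes. The strand setting and annotation release were not given in the sources used here. FPKM served for levels, since it corrects for gene length, and counts for tests.

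Counts were tested with edgeR 4.0.16 (TMM scaling, the quasi-likelihood functions glmQLFit and glmQLFTest, Benjamini-Hochberg adjustment over all genes) in R 4.3.3, for each pair of groups on its 6 libraries leaving out genes without a count in these. DEGs had an adjusted p under 0.05 and at least a 2-fold change. Standard errors of log2 fold changes were taken as |log2 fold change| over the root of the F statistic. Values before a ± are fitted changes with SE or group means with SD, as named. Since the smallest two-sided p of an exact permutation test for 3 against 3 libraries is 0.1, the model's p-values are given.

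The members and the lists of genes were chosen with earlier results of these data known. Members with a mean of at least 1 CPM were named with values and the others with counts, except that 1 member, included in the fits and counts, is not reported here. Alternatives were DESeq2 1.42.0, its size factors, library sizes alone, edgeR's expression filter, the replicate number as a block, 1 fit over the 9 libraries, limma 3.58.1 on log2(FPKM + 1) and log2(FPKM + 0.1), no fold threshold, and leaving out each library in turn. The scripts were tested on simulated counts. The precision of a count is limited by depth, and a floor of 3 counts covers counting error only. Overlapping genes were read from the coordinates of the deposited tables. Of the members, 23 overlap another gene, and 4 overlap genes on the other strand with at least 10% of the member's own counts. Upstream sequences are those of RefSeq on GRCm38.p6.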

Additional observations from a re-analysis of the deposited data

How the results depend on the processing

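Of the DEGs, 10 of 13 in Differentiated vs Undifferentiated, 9 of 14 in Lysfree vs Differentiated and 2 of 6 in Lysfree vs Undifferentiated (Slc25a10 and Slc25a25) were called in all 14 alternatives that refit the data. Calls were lost in at least 1 of them for Slc25a23, Slc25a27 and Slc25a45 in the first comparison, for Slc25a12, Slc25a23, Slc25a24, Slc25a27 and Slc25a42 in the second and for Slc25a23, Slc25a28, Slc25a33 and Slc25a40 in the last. Calls were gained for Slc25a14, Slc25a28 and Slc25a44, for Slc25a25 and for Slc25a39. No DEG changed direction in any of them.

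Without the fold threshold, which by its construction admits more genes, 34 members passed in Differentiated vs Undifferentiated (23 higher, 11 lower), 25 in Lysfree vs Differentiated (8 higher, 17 lower) and 28 in Lysfree vs Undifferentiated (18 higher, 10 lower). Limma on log2(FPKM + 1), which by its construction shrinks changes of scarce members, gave 1 lower DEG in Differentiated vs Undifferentiated, 3 higher DEGs in Lysfree vs Differentiated, and 2 DEGs in Lysfree vs Undifferentiated (1 higher, 1 lower). The same counts over all genes went from 2784 to 1276, from 1963 to 823 and from 3426 to 1474. Leaving out each library in turn gave 12 to 14, 13 to 15 and 4 to 7 DEGs among the members in the 3 comparisons. The higher DEGs ran from 9 to 10, from 3 (without Lysfree 1) to 5, and from 2 (without Undifferentiated 3) to 5, and the lower DEGs from 3 to 4, from 9 to 10 and stayed at 2.

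Replicate numbers are shared between the groups, and the correlations of deviations between same-numbered libraries were all below 0.1. Those between libraries of unlike number ran from -0.14 to 0.098. With 3 libraries per group this cannot exclude pairing, so whether the numbers pair the samples is unknown. With a replicate block the members called were 13, 13 and 6, where Slc25a12 lost its call in Lysfree vs Differentiated at a log2 fold change of 0.99. With library sizes alone the median of all genes with at least 1 CPM in Lysfree vs Differentiated moved to 0.13, from 0.052.

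Among the 39 members with a mean of at least 1 CPM, the sign turned only for members that were not DEGs, and the cause was not tested. Of the scarcer members, leaving out libraries gave -0.71 to 0.18 for Slc25a18 in Differentiated vs Undifferentiated, -0.47 to 1.17 for Slc25a2 in Lysfree vs Differentiated, and -0.18 to 0.71 for Slc25a18 and -1.61 to 0.44 for Slc25a54 in Lysfree vs Undifferentiated. In Lysfree vs Differentiated, Slc25a28 was at -0.023 and -0.025 with limma on log2(FPKM + 1) and log2(FPKM + 0.1), and Slc25a29 at 0.031 with library sizes alone. Slc25a46 was at -0.016 with DESeq2 and with its size factors, -0.023 with the expression filter, -0.00046 with all 9 libraries in a single fit, -0.0038 with the replicate block, and -0.063 and -0.068 with limma at the 2 pseudocounts. Leaving out libraries gave -0.027 to 0.14 for Slc25a17, -0.041 to 0.20 for Slc25a28, -0.13 to 0.057 for Slc25a29 and -0.16 to 0.094 for Slc25a46.

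In Lysfree vs Undifferentiated, Slc25a13 was at -0.0072 with the expression filter and -0.014 and -0.017 with limma, and Slc25a14 at 0.0077 with library sizes alone. Slc25a34 was at -0.0034 with DESeq2's size factors, -0.022 with the expression filter, -0.012 with all libraries in a single fit, -0.013 with the replicate block, and -0.012 and -0.066 with limma. Leaving out libraries gave -0.056 to 0.10 for Slc25a13, -0.10 to 0.030 for Slc25a14, -0.43 to 0.24 for Slc25a34, -0.28 to 0.13 for Slc25a35 and -0.029 to 0.18 for Slc25a51.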
